A study of Mus musculus with 9 samples.

Results

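Replication-dependent histone genes encode the histones that package newly copied DNA, and their RNA was followed here in whole ovaries of C57BL/6J mice at 15 weeks of age. Members were chosen by name: H1f1 to H1f5 and all symbols that start with H2ac, H2bc, H3c or H4c followed by a number (formerly Hist1h, Hist2h and similar names). Of 63 such symbols in the RefSeq annotation, 59 had a row in the deposited table and 53 were above 0 in all 3 groups. H2bc4 and H2bc8 share a row, so 52 rows of 27499 above 0 in all groups (33450 in all) are described. Control mice (3) ate standard chow with 16% fat for 10 weeks. The other 6 mice ate a 60% fat diet for the same time and were grouped by the outcome: 3 stayed lean (HFLN) and 3 became obese (HFOB). HFLN and HFOB thus differ by how the animals responded to the diet and not by assignment.

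Levels are the FPKM that the authors deposited, read fragments scaled by transcript length and library size, with 1 value per group. Each has a lower and upper bound whose confidence level was not given in the sources used here. Single animals were not analysed here, so differences have no replicate check, no SD and no p-value, and how many animals carry a difference is unknown. Ratios are plain ratios of group FPKM. In bulk tissue, fewer cells of a type and less RNA per cell cannot be told apart. Markers of granulosa, theca, luteal, oocyte and stromal cells were present in all groups, and the sperm genes Prm1 and Tnp1 summed to at most 0.0930 FPKM.

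Most messenger RNA ends in a poly(A) tail. The RNA of replication-dependent histone genes instead ends just after a short stem-loop that the stem-loop binding protein SLBP recognises and that the U7 small nuclear particle helps to cut. These genes sit in clusters, most lack introns, and their RNA accumulates in S phase, when a cell copies its DNA. Some of them also yield a longer RNA with a poly(A) tail, mainly in cells that no longer divide. Libraries of this series were made with a kit for messenger RNA, which captures RNA through its poly(A) tail, so RNA that ends at the stem-loop is captured poorly. In the ovary, growing follicles hold most of the dividing cells.

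The stem-loop is the sequence feature that defines these RNAs, so examples are shown first. Each line gives 5 bases on either side in lower case and the 16-base stem-loop in capitals, 5′ to 3′, from the GENCODE vM21 transcript paired with the gene's RefSeq identifier.
H1f2: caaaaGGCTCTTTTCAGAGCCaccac
H2ac4: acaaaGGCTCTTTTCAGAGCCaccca
H2bc3: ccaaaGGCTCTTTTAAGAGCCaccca
H3c2: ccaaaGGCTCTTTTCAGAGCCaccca
H3c8: ttaaaGGCTCTTCTTAGAGCCaccca
H3c14: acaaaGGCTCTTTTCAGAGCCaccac
H4c2: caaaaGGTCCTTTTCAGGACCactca
H4c4: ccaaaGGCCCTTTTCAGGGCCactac
H4c9: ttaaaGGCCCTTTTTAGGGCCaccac
The histone stem-loop consensus was found in 42 of the 62 members with a GENCODE model, against 0.148% of 58797 protein-coding transcripts. Of the other 20, 17 have models under 750 bases. Members were counted by gene, with a match in any paired transcript. The 0.148% counts single transcripts, with those of the members included. The form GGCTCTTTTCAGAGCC was found in 24 members, in every class but H4. The 11 H4 members with a match had forms found in no other class: 6 carry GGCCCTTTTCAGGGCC, 2 carry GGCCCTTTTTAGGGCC, 2 carry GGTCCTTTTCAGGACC and 1 carries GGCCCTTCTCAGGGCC.

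Most of these genes were lowest in lean mice on the high-fat diet. Of the 52 rows, 47 were lower in HFLN than in control, and 37 were lower by 2-fold or more. Among all rows above 0, 46.9% were lower and 5.96% were lower by 2-fold or more. The median log2 ratio of HFLN to control was -1.67 for the histone rows and 0.02 for all rows, so the median histone row stood 3.19-fold below control. HFLN held the lowest of the 3 values in 41 of 52 rows (31.1% of all rows). The order control, HFOB, HFLN from high to low was found in 30 rows (18.3% of all rows).

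**Figure D1:**
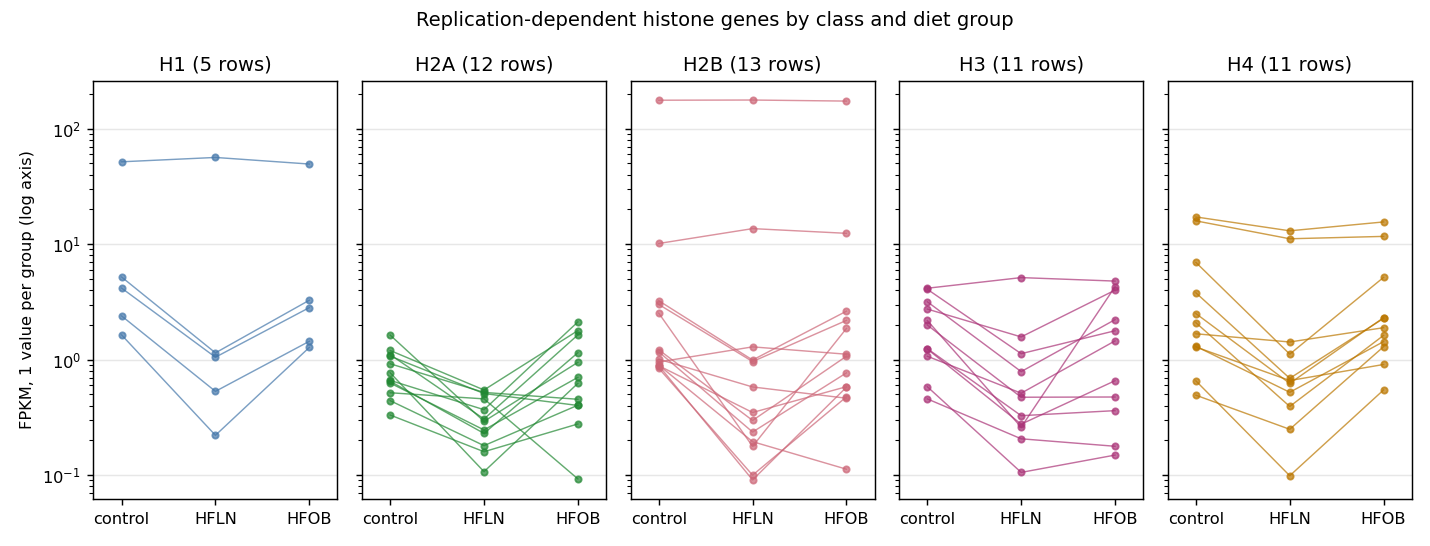
FPKM of the 52 histone rows in control, HFLN and HFOB, 1 panel per class, on a log axis; each line joins the 3 group values of 1 row. Most lines dip at HFLN, while the rows above 10 FPKM (H1f2, the row of H2bc4 and H2bc8, H2bc21, H4c8 and H4c9) differ by less than 2-fold between groups.

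The deposited intervals are wide and most of them overlap. The lower bound was 0 in 29 of 52 rows in control, in 44 in HFLN and in 39 in HFOB. A row was called when its fold was at least 2 on the log2(FPKM + 1) scale, at least 1 group reached 1 FPKM, the status was OK in both groups and the deposited intervals did not overlap. H3c2 alone was called in HFLN against control, lower in HFLN (0.219% of all rows tested were called lower). Without the condition on intervals, 16 rows met the rule (1.47% of all rows tested). Of 23 rows whose control interval stays above 0, 6 had an HFLN value below it, against 0.564% of all such rows: H2ac4, H3c2, H3c6, H3c8, H3c10 and H3c13. Rows enter this count through their control interval alone, and the reverse count was not made. The share of all such rows covers every level of FPKM.

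The level of a gene separated the members in HFLN. The 5 rows with a mean of at least 10 FPKM summed to 271 FPKM for control, 271 for HFLN and 263 for HFOB. Within that sum, 2 rows (H4c8 and H4c9) were lower in HFLN than in control and 3 were higher. Their log2 ratios ran from -0.52 to 0.43, and the row of H2bc4 and H2bc8 makes up most of the sum. The 47 rows under 10 FPKM summed to 83.6, 28.7 and 69.1, 2.91-fold lower in HFLN than in control. Of these, 45 were lower in HFLN, with a median log2 ratio of -1.85. The 5 abundant rows thus made up 76.4% of the summed histone FPKM for control, 90.4% in HFLN and 79.2% in HFOB. Below 10 FPKM the ratio did not follow the level: across those 47 rows, Spearman's rho between mean FPKM and the log2 ratio was -0.01 (0.23 across all 52), with both measures taken from the same libraries.

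**Figure D2:**
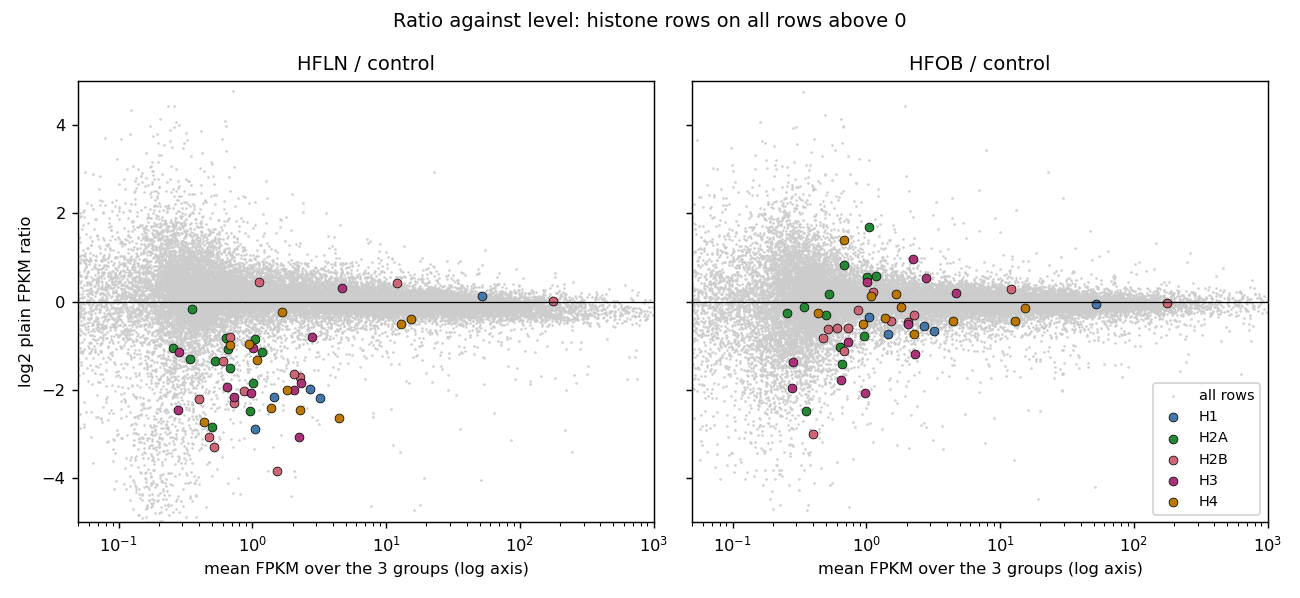
Log2 plain FPKM ratio of HFLN to control (left) and HFOB to control (right) against the mean FPKM of the 3 groups, for all rows above 0 (grey) and the histone rows (coloured by class); rows outside the axes are not drawn. On the left most histone rows between 0.3 and 5 FPKM lie well below the grey band, and the 5 rows above 10 FPKM lie between -0.52 and 0.43. On the right the histone rows lie on both sides of 0.

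Linker histones of the H1 class bind the DNA between nucleosomes. H1f2, known for persisting in cells that have stopped dividing, stood at 51.7 FPKM for control (deposited interval 22.3 to 81.1), 56.4 for HFLN (26.8 to 86.0) and 49.4 for HFOB (22.6 to 76.3). The other 4 H1 genes were all low in HFLN and in between in HFOB. H1f4 stood at 5.20 FPKM for control, 1.14 for HFLN and 3.27 for HFOB, with all 3 intervals reaching 0. H1f3 stood at 4.17, 1.05 and 2.82, and H1f5 at 2.39, 0.531 and 1.44. H1f1 had the lowest ratio of the class, at 1.64, 0.221 and 1.28 FPKM, 7.40-fold lower in HFLN than in control. Log2 ratios of HFLN to control ran from -2.89 to -1.99 in these 4, and the intervals of HFLN and control overlapped for each.

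H1 promoters share a short box, AAACACA, which was found on either strand in 4 of 5 H1 promoters and in 7.14% of all 27025 promoters (250 bases before to 50 after the start). The promoter of H1f4, the H1 gene with the lowest HFLN ratio among those that hold the box, is shown with the box and the TATA motif TATAAA in capitals (RefSeq, GRCm38.p6, chr13:23622509-23622808, minus strand).
H1f4: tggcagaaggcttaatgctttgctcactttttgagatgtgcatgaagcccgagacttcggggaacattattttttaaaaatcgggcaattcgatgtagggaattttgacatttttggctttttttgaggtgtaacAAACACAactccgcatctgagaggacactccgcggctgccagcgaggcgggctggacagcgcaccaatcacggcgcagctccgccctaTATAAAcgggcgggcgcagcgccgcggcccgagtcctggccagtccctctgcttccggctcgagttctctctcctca

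H2A pairs with H2B in the nucleosome core. All 12 H2A rows were lower in HFLN than in control, 9 of them by 2-fold or more, with a median log2 ratio of -1.22. None exceeded 2.12 FPKM in any group. H2ac20, of the chromosome 3 cluster, stood at 1.20 FPKM for control, 0.546 for HFLN and 1.79 for HFOB. H2ac4 stood at 1.11 (0.495 to 1.72), 0.306 (0 to 0.997) and 1.64 (0.417 to 2.86), so its HFLN value lay below the control interval while the intervals themselves overlapped. H2ac15 stood at 1.63, 0.292 and 0.948. In HFOB, 7 of the 12 rows were lower than in control and 5 were higher (48.9% of all rows), with a median log2 ratio of -0.19. H2ac13 was the highest of them relative to control, at 0.662 FPKM for control (0.0715 to 1.25), 0.369 for HFLN (0.0315 to 0.706) and 2.12 for HFOB (0.806 to 3.44). Its HFOB interval lay above that of HFLN and overlapped that of control. H2ac21 went the other way, at 0.517, 0.458 and 0.0928 FPKM, lowest in HFOB. H2ac22 and H2ac12 were listed at 0 in HFLN, with 0.577 and 0.323 FPKM for control and 0.120 and 0.281 in HFOB, and were given no ratio.

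H2B held both the most abundant row and the lowest ratio of the family. The row shared by H2bc4 and H2bc8 stood at 177 FPKM for control (109 to 244), 177 for HFLN (113 to 242) and 173 for HFOB (108 to 239). H2bc21 stood at 10.1 (4.74 to 15.5), 13.6 (7.45 to 19.8) and 12.4 (6.67 to 18.2), and H2bc7 at 0.955, 1.29 and 1.11. These were the 3 H2B rows with no lower value in HFLN. The other 10 of 13 were lower, 9 of them by 2-fold or more. Among the 6 H2B rows with a mean of at least 1 FPKM, 3 were lower. H2bc3 (chromosome 13, 23746734 to 23747223 in RefSeq, GRCm38.p6) stood at 2.53 FPKM for control (0 to 7.50), 0.178 for HFLN (0 to 0.795) and 1.86 for HFOB (0 to 4.75). It was 14.2-fold lower in HFLN than in control, in a row on a locus shared by 3 rows. H2bc3 has 2 rows in all. The row used is numbered among those of minus-strand histone genes, while H2bc3 lies on the plus strand. Whether that row measures H2bc3 itself is therefore uncertain. H2bc15 stood at 3.24, 0.993 and 2.63, and H2bc6 at 3.01, 0.963 and 2.19. H2bc1, a testis-type H2B, was listed at 0 in both diet groups and at 0.0669 FPKM for control.

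The octamer ATTTGCAT, the site of the transcription factor Oct-1 in H2B promoters, was found on either strand in 6 of 14 H2B promoters, 6 of 17 H2A promoters, none of the other classes, and 1.75% of all promoters. Divergent H2A and H2B genes can share 1 stretch of promoter, so the same match may count for both. CCAAT was found in all H1, H2A, H2B and H3 promoters, in 3 of 11 H4 promoters and in 37.9% of all promoters. The promoter of H2bc3, whose listed row had the lowest HFLN ratio, is shown with the octamer and TATAAA in capitals (RefSeq, GRCm38.p6, chr13:23746484-23746783, plus strand).
H2bc3: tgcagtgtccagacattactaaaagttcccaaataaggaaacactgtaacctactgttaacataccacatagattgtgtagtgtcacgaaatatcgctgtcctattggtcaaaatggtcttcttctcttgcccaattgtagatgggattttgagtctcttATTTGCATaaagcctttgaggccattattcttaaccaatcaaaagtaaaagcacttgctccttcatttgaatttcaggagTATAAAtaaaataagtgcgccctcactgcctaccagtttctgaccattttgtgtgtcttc

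Many H2A and H2B genes stand head to head, and 11 such pairs had starts 164 to 281 bp apart. Both genes were above 0 in all groups in 7 pairs. In 4 of these the H2A gene was lower in HFLN while its H2B partner was not. H2ac20 had a log2 ratio of HFLN to control of -1.14 beside 0.43 for H2bc21. H2ac6 and H2ac8 had -1.35 and -1.08, while the row of their partners H2bc4 and H2bc8 had 0.01. H2ac7 had -2.84 beside 0.43 for H2bc7. In the other 3 pairs both genes were lower: H2ac15 and H2bc15 at -2.48 and -1.71, H2ac13 and H2bc13 at -0.84 and -1.35, and H2ac11 and H2bc11 at -0.82 and -2.31. The listed ratios thus differed between genes with starts so close together, but the intervals of HFLN and control overlapped for every gene of these 7 pairs. H2bc4 and H2bc8 have 1 value between them, which enters both of their pairs. That row and those of H2ac6, H2ac7 and H2bc7 lie on 1 locus shared by several rows.

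**Figure D3:**
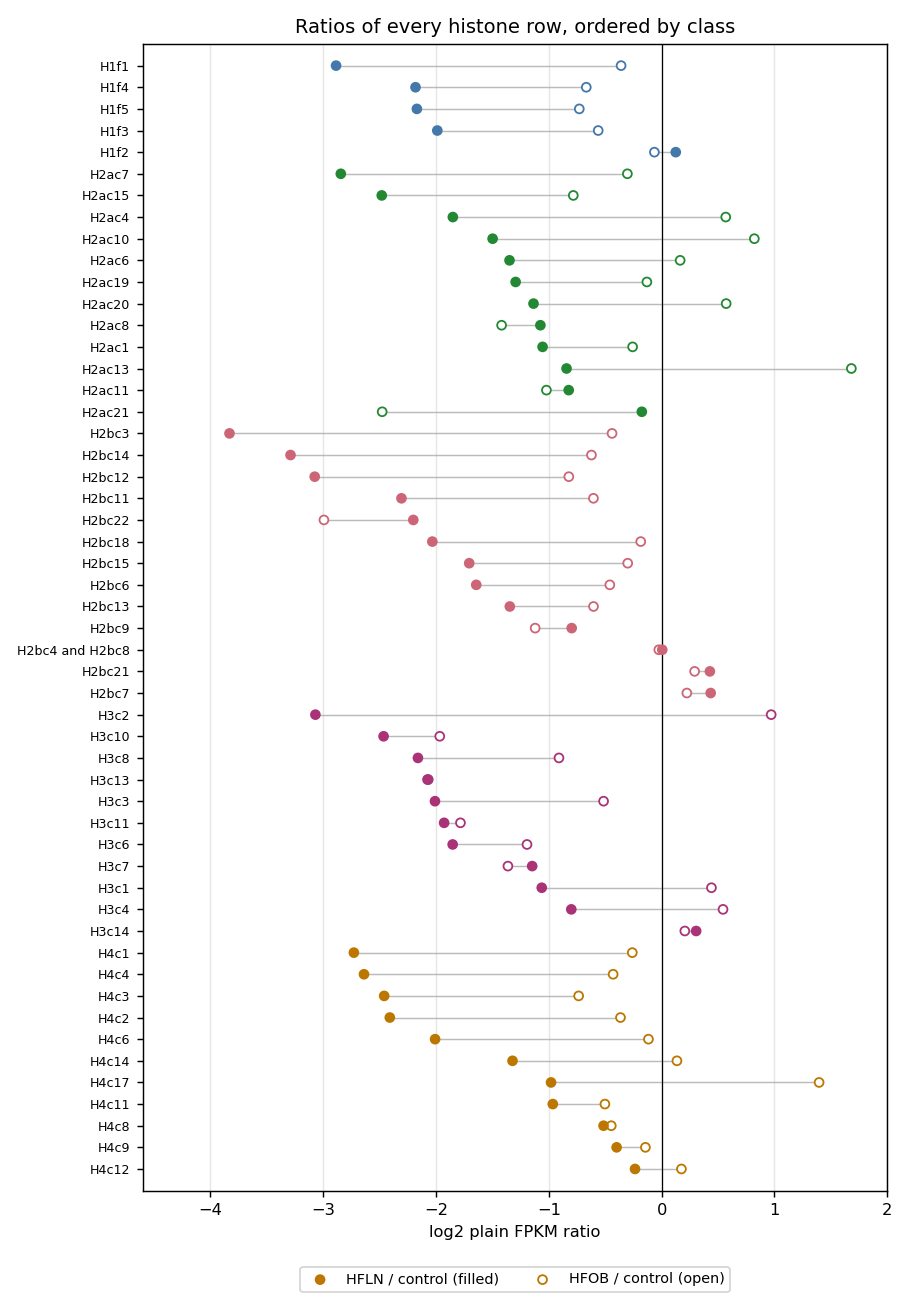
Log2 plain FPKM ratio of every histone row to control, ordered by class and then by the HFLN ratio; filled points are HFLN and open points are HFOB. Filled points lie left of 0 in 47 of 52 rows, and most open points lie to their right.

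H3 forms the centre of the nucleosome together with H4, and its tail carries many of the known histone marks. Of 11 H3 rows, 10 were lower in HFLN, with a median log2 ratio of -1.93. H3c2 (chromosome 13, 23752345 to 23752840) stood at 2.18 FPKM for control (1.28 to 3.09), 0.260 for HFLN (0 to 0.566) and 4.28 for HFOB (1.95 to 6.61). The HFLN interval lay apart from both others, and H3c2 was called in HFOB against HFLN as well. H3c14 (chromosome 3) was the 1 H3 row that was not lower, at 4.16 (1.47 to 6.84), 5.14 (2.04 to 8.23) and 4.79 (1.83 to 7.75). H3c4 stood at 2.74, 1.57 and 4.00, with intervals reaching 0.

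H3 was also the class with the lowest median in HFOB. Its median log2 ratio of HFOB to control was -0.91, and 5 of 11 rows were lower by 2-fold or more (5.89% of all rows). H3c13 (chromosome 3, 96268654 to 96269155) stood at 1.99 FPKM for control (1.16 to 2.82), 0.473 for HFLN (0 to 1.37) and 0.475 for HFOB (0.0486 to 0.901). It was the 1 histone row called in HFOB against control (0.272% of all rows tested were called lower). H3c6 stood at 4.07 (1.58 to 6.56), 1.13 (0 to 2.74) and 1.78 (0 to 4.25). H3c10, H3c11 and H3c7 were likewise low in both diet groups, with HFOB log2 ratios of -1.97, -1.78 and -1.36. These 5 were below control by 2-fold or more in both diet groups, while H3c1, H3c2, H3c4 and H3c14 stood above control in HFOB. H3c3 and H3c8 lay in between in HFOB, with log2 ratios of -0.51 and -0.91.

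H4 is the most conserved core histone, and all its genes encode nearly the same protein. All 11 H4 rows were lower in HFLN, 6 of them by 2-fold or more, with a median log2 ratio of -1.32. H4c9 stood at 17.2 FPKM for control (3.79 to 30.6), 13.1 for HFLN (3.44 to 22.7) and 15.6 for HFOB (4.21 to 27.0), and H4c8 at 15.9, 11.1 and 11.7. H4c4 was 6.23-fold lower in HFLN, at 6.95, 1.12 and 5.16, and H4c3 5.50-fold lower, at 3.79, 0.689 and 2.28. H4c12 had the ratio nearest to 1, at 1.68, 1.42 and 1.89 FPKM. The intervals of HFLN and control overlapped for every H4 gene. In HFOB the H4 rows lay close to control, with a median log2 ratio of -0.26 and 0 rows lower by 2-fold or more.

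**Figure D4:**
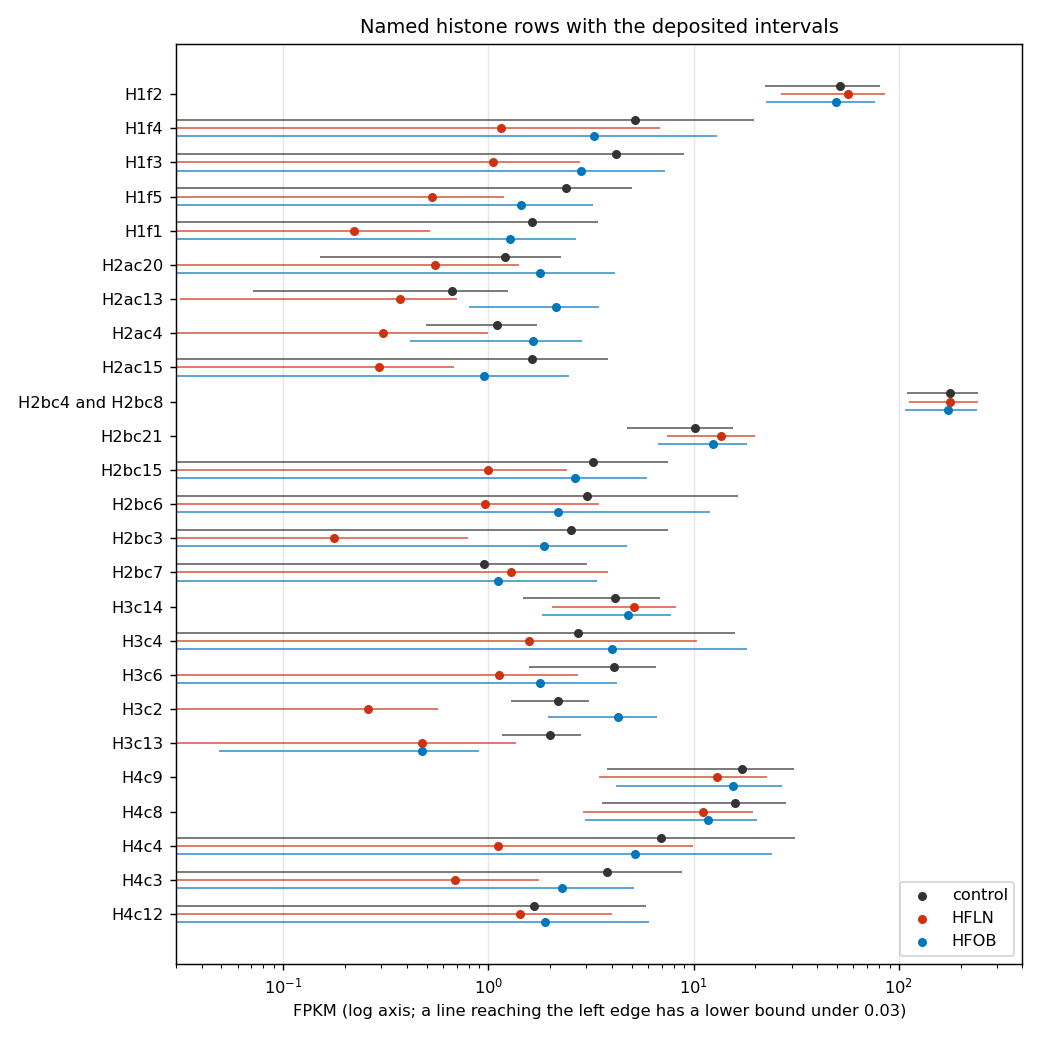
FPKM and deposited interval of the named histone rows in control, HFLN and HFOB on a log axis. The HFLN line of H3c2 lies apart from both others and the HFOB line of H3c13 lies below that of control; the remaining HFLN and control lines overlap.

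Obese mice stood much closer to control than lean mice on the same diet did. Of the 52 rows, 38 were lower in HFOB than in control (51.1% of all rows), and 10 were lower by 2-fold or more (5.89% of all rows). The median log2 ratio was -0.40, against -0.01 for all rows. Against HFLN, 41 of 52 rows were higher in HFOB (47.3% of all rows) and 31 were higher by 2-fold or more (5.05% of all rows), with a median log2 ratio of 1.42. H3c2 and H2ac13 were called in this comparison (0.112% of all rows tested were called higher), and 6 rows met the rule without its condition on intervals (1.23% of all rows tested). The 3 comparisons share groups, so a single group value enters 2 of them. The rows of at least 10 FPKM again differed little, with log2 ratios of HFOB to HFLN from -0.19 to 0.26. Among the 1056 protein-coding rows with a transcript under 1 kb, histone rows included, 64.1% were lower in HFOB than in control. In that set 65% were higher in HFOB than in HFLN.

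The end of the gene model goes with the ratio in part. A GENCODE model that ends with the polyadenylation signal AATAAA in its last 40 bases was found for 8 of the measured rows, and 3 of these were not lower in HFLN (H1f2, H2bc21 and H3c14) against 2 of the other 44. The remaining 5 were lower, from H4c11 at a log2 ratio of -0.97 to H4c1 at -2.73. The 33 rows that ran at most 200 bases past the RefSeq 3′ end had a median log2 ratio of -1.85. Of these, H2bc22 and H3c6 stop well short of that end. The authors' own row ran more than 200 bases past it in 9 cases, with a median of -0.80. The row of H1f2, for example, ends 1365 bases beyond the RefSeq gene, and that of H3c14 ends 1159 bases beyond. Others go against it. H1f3, H3c11 and H4c14 end 1645, 761 and 1395 bases beyond, with log2 ratios of -1.99, -1.93 and -1.32, and H2bc21 ends at the RefSeq end with 0.43. Another 10 rows lie on loci that the authors' table shares between several rows, so their ends are not known. The window of 200 bases was chosen after the values were seen. No split of this kind was tested.

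Genes that act with these histones hardly differed between the groups. Of 27 S-phase genes, 11 were lower and 16 higher in HFLN than in control, with a median log2 ratio of 0.02 and 0 that differed by 2-fold. The replicative helicase genes Mcm7 and Mcm2 stood at 31.5 and 23.4 FPKM for control and 30.0 and 23.9 in HFLN. Mcm6 shares a row with Dars, an aminoacyl-tRNA synthetase gene, and that row stood at 71.0 FPKM for control and 72.1 for HFLN. Ccne1, the cyclin that opens S phase, had the lowest ratio at -0.19, and the polymerase gene Pola1 the highest at 0.24. The S-phase genes in HFOB had a median of 0.06. The part that the share of cells in S phase has in the histone values was not tested.

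Genes that cut and protect histone RNA were also near control. Of 15 such genes, 9 were lower and 6 higher in HFLN, with a median log2 ratio of -0.03. Slbp stood at 30.5 FPKM for control, 30.7 for HFLN and 29.6 for HFOB. Lsm10 and Lsm11, parts of the U7 particle, stood at 32.4 and 2.96 in control and 29.4 and 2.70 in HFLN. The row of Cpsf2, a subunit of the cleavage complex, had the lowest ratio of the list at -0.24, and Zfp473 the highest at 0.19. Sympk, the scaffold of that complex, and Srrt, which binds capped RNA, stood at 81.3 and 59.7 FPKM for control and 78.0 and 64.0 for HFLN. Among 13 histone chaperone genes, 8 were lower and 5 higher, with a median of -0.03. The most abundant, Rbbp7, Rbbp4 and Ssrp1, stood at 181, 80.0 and 72.6 FPKM for control and 177, 78.0 and 70.1 for HFLN. Chaf1b and Chaf1a, 2 subunits of the factor that places new nucleosomes behind the fork, had the lowest and highest log2 ratios, -0.32 and 0.25.

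Histone variants made outside S phase, whose RNA carries a poly(A) tail, gave a median log2 ratio of -0.09, with 7 of 11 lower in HFLN and 0 by 2-fold or more. H3f3b, a gene for the replacement histone H3 variant, stood at 178 FPKM for control and 203 for HFLN, and Macroh2a1 at 131 and 142. H2az2 stood at 124 and 104. H2az1, a short transcript, had the lowest ratio, at 40.5 FPKM for control (21.8 to 59.1), 22.8 for HFLN (11.9 to 33.7) and 24.4 for HFOB. The oocyte linker histone H1f8 stood at 40.3, 38.0 and 43.2. No variant was called in any comparison.

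**Figure D5:**
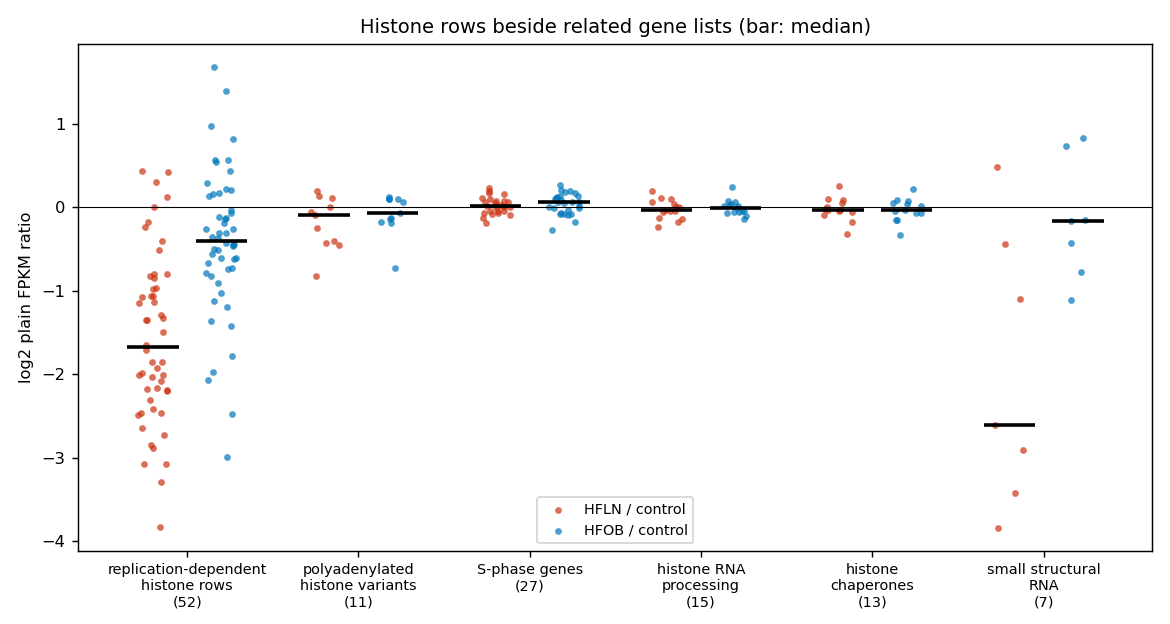
Log2 plain FPKM ratio to control in HFLN (red) and HFOB (blue) for the histone rows and the related lists, with the number of rows above 0 in brackets and a bar at the median. The poly(A)-tailed lists lie around 0, and the histone rows and small structural RNA reach far below it in HFLN.

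Most of the measured small structural RNA, which lacks a poly(A) tail, was also lower in HFLN than in control. Of 7 small structural RNA genes above 0 in all groups, 6 were lower in HFLN and 5 by 2-fold or more, with a median log2 ratio of -2.61 in HFLN and -0.16 in HFOB. These counts include Rnu7, whose row is shared with the protein-coding gene Cckar and stood at 0.0076 FPKM for control. Without it, 5 of 6 were lower and 4 by 2-fold or more, with a median of -2.76. Rmrp and Rpph1, the RNA parts of the enzymes RNase MRP and RNase P, had log2 ratios of -3.42 and -2.90 in HFLN and -0.77 and -0.43 in HFOB, and both were called lower in HFLN than in control and higher in HFOB than in HFLN. Scarna6 and Scarna13, guide RNA of Cajal bodies, had -3.84 and -2.61 in HFLN, but all their intervals reach 0 and neither was called. Vaultrc5 was the 1 of the 7 that was higher in HFLN, at 0.305 FPKM for control and 0.427 for HFLN. Rnu12, the RNA of the minor spliceosome particle U12, was left out of the 7 because it was listed at 0 in HFOB. It stood at 20.4 FPKM for control and 3.53 for HFLN, and was called lower in HFLN than in control and lower in HFOB than in either, unlike Rmrp and Rpph1. Among snoRNA rows, counted after the values were seen, 19 of 21 were lower in HFLN than in control, with a median of -1.09. In HFOB 16 of the 21 were lower than in control, with a median of -0.59. The part that capture of RNA without a poly(A) tail has in the histone values was not tested.

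Short rows as a set were also lower in HFLN more often than all rows. The sets below still include the histone rows that meet their limits, so they are not a separate background. Among 1056 protein-coding rows with a transcript under 1 kb, 69.0% were lower in HFLN than in control and 7.86% were lower by 2-fold or more, with a median log2 ratio of -0.19. Among 3582 protein-coding rows at the level of most histone rows (0.3 to 3 FPKM), 34.5% were lower and 3.07% were lower by 2-fold or more, with a median of 0.12. Among the 16180 rows with a mean of at least 1 FPKM, 50.2% were lower. The histone rows stood at 90.4% and 71.2% by the first and second of these counts. The part that transcript length has in the histone values was not tested. Some cell type markers also differed in HFLN. The 3 luteal markers summed to 2953 FPKM for control, 1457 for HFLN and 1768 for HFOB, but the difference was that of Akr1c18 (2672, 1084 and 1496), while Star stood at 147 and 230 and Lhcgr at 134 and 143 for control and HFLN. The 6 granulosa markers summed to 2455, 2029 and 2188. Theca markers summed to 1520, 1293 and 1334, and blood markers to 241, 137 and 180. Among the blood markers, Ptprc was higher in HFLN than in control (3.72 against 2.61 FPKM). Oviduct-type cilia markers summed to 394, 476 and 326, and adipocyte markers to 28.0, 22.8 and 35.8. The oocyte and stromal sums were nearly equal in HFLN and control, at 130 against 129 and 384 against 383 FPKM. The part of cell makeup in the histone values was not tested.

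Near-identical copies limit what single rows can show. Coding sequences within a class are so alike that reads can map to several genes, and how the authors placed such reads was not given in the sources used here. Rows of H3c14, H2ac19, H2bc3 and H2ac23 were present more than once, and the row with the highest mean FPKM was used. H2ac23, H2bc23 and H4c18 were listed at 0 in all groups. The values of single genes are therefore less certain than those of a class. Rows of a class may share reads and come from the same libraries. Counts of rows are thus not counts of independent measurements.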

How the data were processed

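Ovarian RNA of 9 mice was sequenced. The submitters' processing notes list the aligner TopHat2 2.1.0 and build mm10. They also list Cuffdiff 2.2.1.3, Cufflinks 2.2.1.0 and, for trimming, Trimmomatic 0.32.3. Annotation, strand setting and scaling between libraries were not given in the sources used here. Per the file headers, the authors deposited 1 FPKM per group with its bounds. Total counts are unknown, so no interval from depth can be given.

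RefSeq identifiers were matched to symbols of GRCm38.p6 (99.2% of 35531), and for a symbol with several rows that of the highest mean FPKM was kept. Counts and medians were computed with pandas 2.3.3 and numpy 2.4.6 and tested on simulated data. Group values allow no test over animals. Members, gene lists and the call rule were chosen with earlier results of these data known. Named members are, per class, the 4 of highest mean FPKM, those of lowest and highest HFLN ratio among means of at least 1 FPKM, every called member and every member not lower in HFLN. In each related list, the 3 of highest mean and those of lowest and highest ratio are named. Other genes with values (among them H2ac21, H3c7, H3c10, H3c11, the promoter pairs, Slbp, Lsm10, Lsm11, H1f8, Rnu7, Rnu12 and Vaultrc5) were chosen after their values were seen.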

Additional observations from a re-analysis of the deposited data

How the results depend on the processing

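The share of histone rows lower in HFLN than in control (90.4%) stayed between 82.1% and 95.7% under 15 alternatives of pseudocount, filter, row choice, scaling and class left out, and that in HFOB (73.1%) between 60.7% and 74.5% under 10. The share higher in HFOB than in HFLN (78.8%) stayed between 75.0% and 83.0%. Not all alternatives could move these shares. A pseudocount on the same rows cannot change which group is higher. Scaling by the median ratio of protein-coding rows moved log2 ratios of HFLN to control by only 0.0026. A pseudocount of 1 FPKM brought the median log2 ratio of HFLN from -1.67 to -0.59, since most members are near 1 FPKM. Equal sums over protein-coding rows raised log2 ratios of HFLN to control by 0.22 and left 46 of 52 rows lower. Without the condition on intervals, 16 rows instead of 1 were called in HFLN against control (1.47% of all rows) and 6 instead of 2 in HFOB against HFLN (1.23%). The share of background rows lower in HFLN (46.9%) was 50.2% among rows of at least 1 FPKM. It was 34.5% among protein-coding rows of 0.3 to 3 FPKM and 69.0% among those with a transcript under 1 kb. Histone rows were not removed from these sets. Settings on shared loci, rows of 1 gene in the small RNA list, abundant rows and the level of 0.3 to 3 FPKM were added after the data were seen. No paired analysis was possible because the table holds 1 value per group, and no animal could be left out for the same reason.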
